A study of Homo sapiens with 12 samples.

Results

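The comparison described here set A375 cells carrying a YAP mutant that cannot bind TEADs, YAP-S94A,S127A, against A375 cells carrying the empty retroviral vector, MSCV-IRES-Hygro (Control). A375 is an established human melanoma line with a hypotriploid karyotype. All groups were grown on plastic and carried the hygromycin-selected vector, so that the Control cells shared the backbone and lacked the YAP insert. RNA was sequenced from 3 libraries per group, each from a separate plating of 1 stably transduced population, so that p-values measure the spread between platings, and a difference between constructs and a difference between transduced populations cannot be told apart. The 3 libraries of YAP-S127A, which differs from YAP-S94A,S127A at residue 94 alone, served as the reference for what TEAD-competent YAP does in these cells, and the 3 libraries of YAP-S127A,S381A entered only the estimate of spread and the choice of 1 pair of gene lists. Of the 31585 distinct loci in the deposited table, the 24512 annotated genes other than short RNA loci were followed, and 13098 of these reached 1 FPKM (fragments per kilobase of transcript, scaled to the mapped fragments of a library) in at least 3 of the 12 libraries and were tested.

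YAP and its paralog TAZ (encoded by WWTR1) are transcriptional co-activators at the end of the Hippo pathway. They have no DNA-binding domain of their own and reach most of their target genes through the TEAD family of transcription factors. The LATS kinases phosphorylate YAP on serine residues, including S127, which holds YAP in the cytoplasm. Replacing S127 with alanine frees YAP from this control, and replacing S94 with alanine removes the contact with TEADs. Target genes such as CTGF and CYR61, which encode secreted matricellular proteins, are widely used as a readout of nuclear YAP-TEAD activity.

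The vector gene was examined first. YAP1 (chr11:101981178-102104155 on GRCh37, plus strand) was listed at 34.1, 33.0 and 172 FPKM in Control replicates 1 to 3, at 151, 149 and 162 FPKM in YAP-S94A,S127A and at 159, 159 and 187 FPKM in YAP-S127A. The library labelled Control replicate 3 thus held YAP1 at the level of the cells that carry a YAP insert, against its label, while the other two Control libraries lay well below every YAP library. Counts and medians that rest on this library are therefore given also without it. Most single genes named here whose difference then moved by over 1.5 times or changed sign or call are given so too, but TP73 is not. Without Control replicate 3, 6939 of the 13098 annotated genes tested were below Control in YAP-S94A,S127A, against 6239 with it. YAP1 was 1.39 higher in YAP-S94A,S127A than in Control on the log2(FPKM + 1) scale (95% interval 0.30 to 2.48), with an adjusted p of 0.919 (limma, Benjamini-Hochberg), and 2.16 higher without Control replicate 3, with an adjusted p of 3.2e-06 by the same test.

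The target genes CTGF and DKK1 did not follow YAP1 in Control replicate 3. CTGF was at 12.7, 12.2 and 12.7 FPKM in the Control libraries, against 23.5 to 26.6 FPKM in YAP-S127A. DKK1, an inhibitor of Wnt signalling, was at 4.91 FPKM in Control replicate 3 and at 23.9 FPKM or more in YAP-S127A. Other targets went both ways. CYR61, DDAH1 and CPA4 were higher in Control replicate 3 than in the other Control libraries, and FOSL1, like DKK1, was lower. The source of the YAP1 reads in Control replicate 3 was not tested.

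RNA levels of the paralog TAZ and of the TEADs, through which YAP acts, differed little. These libraries hold no protein measurement. WWTR1 (TAZ) stood at 189 to 216 FPKM in Control and 197 to 224 FPKM in YAP-S94A,S127A, the highest level of the family. TEAD1 stood at 12.03 to 14.6 and 12.1 to 14.9 FPKM, TEAD2 at 8.11 to 8.53 and 8.45 to 11.4 FPKM, TEAD3 at 2.61 to 3.24 and 2.91 to 3.23 FPKM, and TEAD4 at 19.6 to 21.6 and 17.7 to 20.3 FPKM, in Control and YAP-S94A,S127A in turn. The groups overlapped for each of these 5 genes, and the differences lay between -0.08 and 0.15 on the log2 scale. Without Control replicate 3 the differences of WWTR1, TEAD1 and TEAD3 were 0.15, 0.14 and 0.15, the first at an unadjusted p under 0.05 in limma. In YAP-S127A, TEAD4 was 0.65 and TEAD3 0.55 higher than in YAP-S94A,S127A (adjusted p of 2.5e-04 and 0.00183 in limma with Benjamini-Hochberg adjustment), and WWTR1 was 0.40 lower (log2 difference of -0.40, adjusted p = 0.00378 by the same test).

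Melanoma markers were present, as the label of the cell line has it, apart from PMEL, a melanosome protein, which stayed at 0.20 to 0.39 FPKM. Of the 6 melanoma markers 5 reached 1 FPKM, and their summed level was 767 to 910 FPKM in Control and 918 to 938 FPKM in YAP-S94A,S127A. S100A1, a calcium-binding protein of melanocytic cells, made up part of that gap, with 84.8, 108 and 110 FPKM in Control and 143, 129 and 129 FPKM in YAP-S94A,S127A (log2 difference 0.41, 95% interval 0.08 to 0.73, adjusted p = 0.941 in limma with Benjamini-Hochberg adjustment). MITF and S100B were below Control (-0.325 and -0.071, and -0.13 and 0.001 without Control replicate 3), and SOX10 and the MIA locus above it. The MIA locus, at 401.8 to 470.5 FPKM in Control and 458.5 to 475.4 FPKM in the mutant, also lists EGLN2 and RAB4B. Of the 5 leukocyte markers none reached 1 FPKM (summed level of 0.31 to 0.73 FPKM in Control and 0.20 to 0.71 FPKM in YAP-S94A,S127A, with PTPRC at 0 in all 6 libraries). In bulk RNA, fewer cells of a type and less RNA per cell cannot be told apart. The 5 endothelial markers summed to 0.82 to 1.52 FPKM and 0.83 to 1.08 FPKM, the 5 fibroblast markers to 43.1 to 46.0 FPKM and 40.7 to 49.7 FPKM, mostly from PDGFRA, and the 5 keratinocyte markers to 30.3 to 33.5 FPKM and 30.6 to 37.2 FPKM, from KRT10 and KRT14. Libraries of the same group correlated at r = 0.9899 to 0.9937 across annotated genes and libraries of the different groups at 0.9882 to 0.9914, ranges that overlap.

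**Figure D1:**
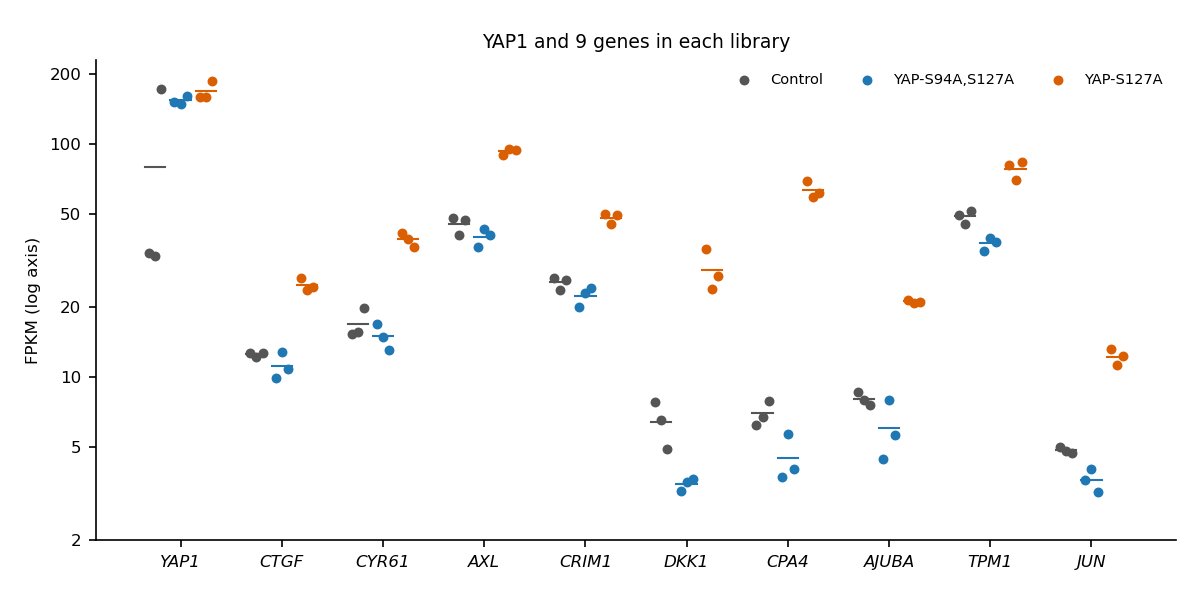
FPKM (log axis) of YAP1 and 9 genes in each library of Control (grey), YAP-S94A,S127A (blue) and YAP-S127A (orange), with 3 points per group for replicates 1 to 3 from left to right and a short line at the group mean. YAP1 in Control replicate 3 sits at 172 FPKM among the YAP libraries, while the target genes of all 6 Control and YAP-S94A,S127A libraries sit below every YAP-S127A library.

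Expressing YAP that cannot bind TEADs moved very few annotated genes past the thresholds. With limma across all 15055 loci tested and Benjamini-Hochberg adjustment over all of them, 5 annotated genes were higher (0.0382%) and 3 were lower (0.0229%) in YAP-S94A,S127A than in Control at an adjusted p under 0.05 and a more than 2-fold ratio of mean FPKM, 8 in all (0.0611%). Without the fold threshold the counts were 6 (0.0458%) and 3 (0.0229%). At an unadjusted p under 0.05 in limma, 247 genes were higher (1.89%) and 206 were lower (1.57%). In the same fit, YAP-S127A exceeded YAP-S94A,S127A at an adjusted p under 0.05 in 912 annotated genes (6.96%) and fell below it in 559 (4.27%). Of these 9 genes 7 kept an adjusted p under 0.05 without Control replicate 3, when YAP1 and the immunoglobulin locus IGH joined them. With the replicate number as a block in the same fit 7 kept it and 3 others passed. With the block and only the 6 libraries compared, a setting chosen after seeing the data, 1 kept it, LOC285074, and the 3 loci that were then higher all list DL490867, a sequence record without a gene name.

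**Figure D2:**
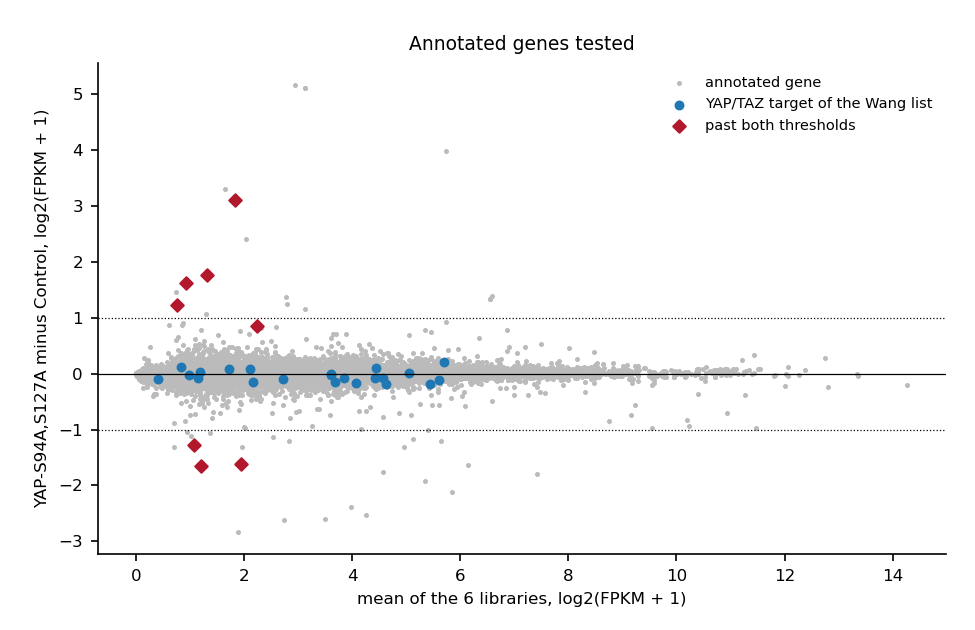
Each of the 13098 annotated genes tested, by its mean over the 6 libraries (x axis, log2(FPKM + 1)) and its difference between YAP-S94A,S127A and Control (y axis, same scale). Red diamonds mark the 8 genes past both thresholds, blue points the 22 YAP/TAZ targets of the Wang list, and the dotted lines a difference of 1. The targets lie between -0.19 and 0.21, inside the cloud of the other genes.

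The 8 genes past both thresholds were weakly expressed, at under 15 FPKM in every library of the 3 groups shown, and held no gene of the Wang or Cordenonsi lists or of the study's signature. Among the genes that fell, LOC285074, an uncharacterised locus, was at 5.83, 5.47 and 5.91 FPKM in Control and 1.22, 1.22 and 1.13 FPKM in YAP-S94A,S127A, with 5.85 to 6.05 FPKM in YAP-S127A. The YAP-S94A,S127A libraries stood apart from both other groups, with a log2 difference from Control of -1.62 ± 0.06 (SE) and an adjusted p of 2.6e-07 (limma, Benjamini-Hochberg). A FAM45A locus fell from 2.80, 3.35 and 2.99 to 0.45, 0.32 and 0.13 FPKM (log2 difference -1.64, adjusted p = 2.5e-05 in limma with Benjamini-Hochberg adjustment). The locus that lists FAM45A together with its near-identical copy FAM45B went the other way, from 8.64, 9.60 and 9.28 to 12.8, 12.6 and 12.2 FPKM (log2 difference 0.41, adjusted p = 0.0220 by the same test, 0.0713 without Control replicate 3). Reads can be shared between such copies, so that neither direction is certain for the family.

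The same holds for a pair of replication-dependent histone loci. AX747534,HIST2H2BF fell from 2.17, 2.42 and 2.15 FPKM in Control to 0.47, 0.27 and 0.31 FPKM (log2 difference -1.27, adjusted p = 8.9e-04 in limma with Benjamini-Hochberg adjustment), and stood at 0.40, 0.47 and 0.18 FPKM in YAP-S127A too. The more strongly expressed locus that also lists HIST2H2BF, chosen after its values were seen, was at 4.53 to 4.71 FPKM in Control and 4.97 to 5.98 FPKM in YAP-S94A,S127A (log2 difference 0.19, 95% interval -0.01 to 0.39). For the weaker locus the Control libraries were the ones apart, from both YAP constructs.

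Of the genes that rose, MT1G, a metallothionein that binds zinc and copper, was at 0.34, 0 and 0.77 FPKM in Control, 3.31, 3.97 and 3.45 FPKM in YAP-S94A,S127A and 7.44, 4.34 and 6.83 FPKM in YAP-S127A. It was higher with either YAP construct than in every Control library, by 1.78 ± 0.27 (SE) on the log2(FPKM + 1) scale in YAP-S94A,S127A (adjusted p = 0.0362 in limma with Benjamini-Hochberg adjustment, 0.0306 without Control replicate 3 and 0.0635 with the replicate number as a block). Other metallothionein loci, whose sequences are close to that of MT1G, gave overlapping groups. The locus of MT1A and MT2A was at 898, 926 and 917 FPKM in Control and 788, 986 and 853 FPKM in YAP-S94A,S127A, and MT1X was at 31.3 to 38.5 and 28.7 to 36.1 FPKM.

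BC113076 was at 0.29, 0 and 0 FPKM in Control, 2.07 to 2.67 FPKM in YAP-S94A,S127A and 3.75 to 4.78 FPKM in YAP-S127A (log2 difference between the first pair 1.62, adjusted p = 1.6e-04 in limma with Benjamini-Hochberg adjustment). DEFB124, a beta-defensin gene, was at 0, 0 and 0.34 FPKM in Control, 1.71, 1.52 and 1.53 FPKM in YAP-S94A,S127A and 0 in all YAP-S127A libraries (1.23, adjusted p = 9.8e-04 by the same test). E07735,IGL@, a locus of the immunoglobulin lambda cluster, was at 0.33, 0 and 0.36 FPKM in Control, 14.8, 7.80 and 7.30 FPKM in YAP-S94A,S127A and 0 in YAP-S127A (3.10, adjusted p = 6.6e-05 by the same test). DEFB124 and the lambda locus were thus at or near 0 both in Control and with TEAD-competent YAP. Since both passed the filter on low values only through the 3 YAP-S94A,S127A libraries, the filter itself favoured a difference in this direction. MT1G and BC113076 also had no Control library at 1 FPKM. They passed the filter only through libraries with a YAP construct, which favoured a rise for them too. BC070363 rose from 2.64, 2.35 and 2.59 to 6.77, 4.35 and 5.15 FPKM with an adjusted p of 0.0489 in limma (Benjamini-Hochberg), which was 0.0852 with the replicate block and 0.147 without Control replicate 3.

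For most genes the libraries bound the effect of YAP-S94A,S127A rather tightly. The whole 95% interval of the log2 difference lay within a 2-fold change of Control for 12891 of the 13098 annotated genes (98.42%) and within a 1.5-fold change for 12176 (92.96%). The distance from the estimate to either end of the interval had a median of 0.22 on the log2(FPKM + 1) scale. For the 9085 genes with a mean of at least 5 FPKM, 98.71% lay within 2-fold and 95.61% within 1.5-fold, and for the 4013 weaker genes 97.76% and 86.97%. The added 1 FPKM pulls the differences of weak genes towards 0, so that the bound for weak genes holds on this scale and not for the FPKM ratio itself. Without Control replicate 3 the shares over all annotated genes were 97.94% and 89.36%.

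The interval of 207 annotated genes reached a 2-fold change, and that of 11 lay wholly beyond it. These 11 included 6 of the 8 genes past both thresholds, all but DEFB124 and BC070363, and 2 loci that list a protein-coding gene together with a microRNA. MIR564,TMEM42 was at 110, 140 and 123 FPKM in Control and 24.3, 59.6 and 41.1 FPKM in YAP-S94A,S127A (log2 difference -1.63, adjusted p = 0.0620 in limma with Benjamini-Hochberg adjustment). MIR4750,TBC1D17 was at 12.2, 11.5 and 13.6 FPKM in Control, 278, 256 and 134 FPKM in YAP-S94A,S127A, and 13.1, 10.97 and 424 FPKM in YAP-S127A, so that 1 YAP-S127A library stood with the mutant. Such mixed loci numbered 129 among the annotated genes tested, and their values cannot be assigned to the coding gene. The other 3 loci list DL490867.

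**Figure D3:**
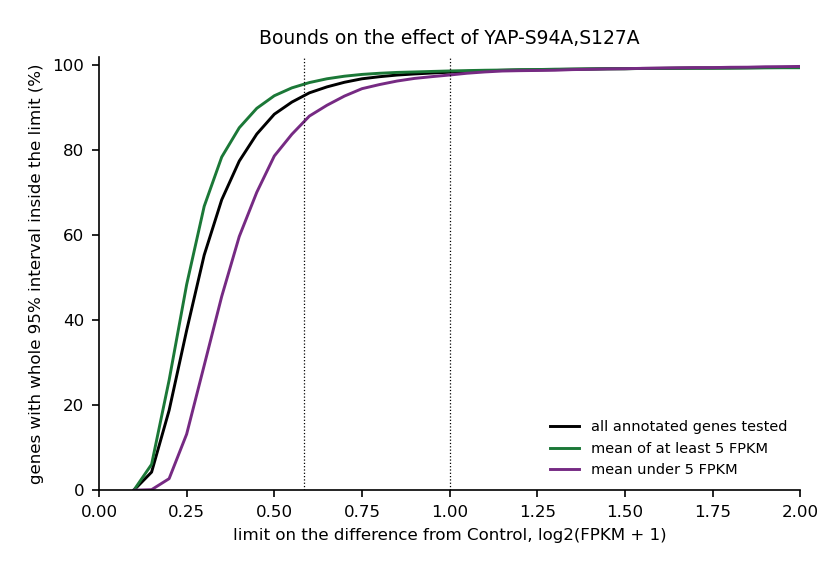
Share of annotated genes (y axis, percent) whose whole 95% interval of the difference between YAP-S94A,S127A and Control lies inside the limit on the x axis (log2(FPKM + 1)), for all genes tested (black), genes with a mean of at least 5 FPKM (green) and weaker genes (purple). The dotted lines mark a 1.5-fold and a 2-fold change, at which the black curve stands at 92.96% and 98.42%.

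YAP target genes did not pass the adjusted test in YAP-S94A,S127A against Control, and more of them lay below Control than above it. Of the 22 YAP/TAZ targets of the Wang list, all of which were tested, 14 were below Control on average, beside 47.6% of all annotated genes, and none passed an adjusted p of 0.05 in limma. The median log2 difference of the list was -0.069, beside 0.005 over all annotated genes tested, and the single-library medians overlapped, with Control replicate 2 at -0.060 below all 3 mutant libraries (-0.045, -0.052 and -0.026). At an unadjusted p under 0.05 in limma 2 members were lower, beside a background of 1.57%, and none was higher, beside 1.89%. The number that were lower was 1 with the replicate block and 0 without Control replicate 1, Control replicate 3 or YAP-S94A,S127A replicate 1. Over the 13098 annotated genes it was 194, 240 and 122 without those libraries in turn. Leaving out Control replicate 1 or 3 gave a list median of -0.035 or -0.017. The median over all annotated genes was -0.0077 without Control replicate 3.

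Those 2 members were AXL and CRIM1. AXL, a receptor tyrosine kinase for GAS6, was at 48.1, 40.7 and 47.4 FPKM in Control and 36.2, 43.0 and 40.8 FPKM in YAP-S94A,S127A, groups that overlapped. The log2 difference was -0.18 (95% interval -0.35 to -0.01), and it was -0.15 without Control replicate 3, no longer below an unadjusted p of 0.05 in limma. CRIM1, a transmembrane protein that binds BMPs, was at 26.6, 23.7 and 26.2 FPKM in Control and 19.95, 22.9 and 24.1 FPKM in YAP-S94A,S127A, also with an overlap. Its log2 difference was -0.19 (95% interval -0.35 to -0.02), and -0.17 without Control replicate 3, likewise no longer below that threshold. In YAP-S127A the same genes stood at 89.5 to 95.6 and 45.4 to 49.9 FPKM, above all 6 other libraries.

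The matricellular targets lay within their spread. CTGF, at 12.7, 12.2 and 12.7 FPKM in Control, was at 9.94, 12.8 and 10.9 FPKM in YAP-S94A,S127A, with replicate 2 above every Control library. CYR61 was at 15.3, 15.6 and 19.8 FPKM in Control and 17.0, 14.8 and 13.1 FPKM in YAP-S94A,S127A. The log2 differences were -0.15 (95% interval -0.38 to 0.07) and -0.16 (-0.51 to 0.18), and without Control replicate 3 they were -0.15 and -0.053. A fall of more than 0.38 or a rise of more than 0.07 therefore lay outside the interval for CTGF. For ANKRD1, a nuclear cofactor that was close to the filter at 0.34 to 1.26 FPKM in Control and 0.55 to 1.395 FPKM in YAP-S94A,S127A, the interval of -0.35 to 0.60 set a looser bound, and the difference of 0.12 was -0.053 without Control replicate 3.

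The letters GGAATG, the core to which TEADs bind, were looked for on both strands in the RefSeq promoter windows (250 bases before to 50 after the start) of the named targets, since most of these genes were higher in YAP-S127A than in YAP-S94A,S127A. They occurred in the windows of 9 of the 19 named targets with an entry (47.4%), beside 4928 of all 35116 promoters in the table. The windows of AXL, AMOTL2 and F3 held none. The CTGF window held 3, of which the latter pair lie so close that the stretches shown overlap, the ANKRD1 window 2 and the DKK1 window 1. These sites are shown with 12 bases on either side, 5′ to 3′ along the gene, with the motif in capitals and GRCh37 coordinates; the first base of the motif lay at -169, -104 and -95 from the start for CTGF, -220 and -128 for ANKRD1, and -50 for DKK1.
CTGF site 1, chr6:132272664-132272693, minus strand: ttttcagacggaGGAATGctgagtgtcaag
CTGF site 2, chr6:132272599-132272628, minus strand: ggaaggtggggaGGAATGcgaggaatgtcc
CTGF site 3, chr6:132272590-132272619, minus strand: ggaggaatgcgaGGAATGtccctgtttgtg
ANKRD1 site 1, chr10:92681047-92681076, minus strand: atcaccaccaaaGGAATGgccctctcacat
ANKRD1 site 2, chr10:92680955-92680984, minus strand: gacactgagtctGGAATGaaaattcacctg
DKK1 site, chr10:54073979-54074008, plus strand: tcccaaggggccGGAATGctccgggcccgc

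These matches are a description of the letters and not evidence of binding. DKK1, with 1 such site, was the target that differed most from Control among the 27 of the Wang list and the reporter genes. It was at 7.83, 6.53 and 4.91 FPKM in Control and 3.24, 3.55 and 3.66 FPKM in YAP-S94A,S127A, so that every mutant library lay below every Control library, at 54.2% of the Control mean. The log2 difference was -0.71 ± 0.16 (SE, 95% interval -1.06 to -0.36) with an adjusted p of 0.392 in limma with Benjamini-Hochberg adjustment. Without Control replicate 3, which was the lowest Control library, the difference was -0.86 with an adjusted p of 0.0801 by the same test. In YAP-S127A, DKK1 was at 35.6, 23.9 and 27.1 FPKM.

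A set of 9 reporter genes of YAP-TEAD activity (ANKRD1, CYR61, CTGF, CRIM1, DLC1, WWC1, FOSL1, DDAH1 and DKK1) had a median difference of -0.15 from Control, with 7 of 9 below it, and -0.15 with 9 of 9 below it without Control replicate 3. Over all annotated genes 47.6% were below Control, and 6939 of 13098 without that library. Besides DKK1, DLC1, a tumour suppressor, was lower in every mutant library (4.37, 3.66 and 4.11 against 3.29, 3.47 and 3.15 FPKM, a log2 difference of -0.23). FOSL1, an AP-1 subunit, was at 145, 136 and 107 FPKM in Control and 109, 140 and 108 FPKM in the mutant, and DDAH1, which degrades methylated arginines, was at 5.96, 5.34 and 7.10 FPKM and 5.53, 5.47 and 5.40 FPKM. WWC1 (KIBRA), an upstream activator of LATS, was at 0.79 to 1.26 FPKM and 0.91 to 1.23 FPKM. The differences of these last 3 genes were -0.11, -0.13 and 0.08, and without Control replicate 3 they were -0.24, -0.039 and -0.0032. All 9 were higher in YAP-S127A than in YAP-S94A,S127A at an adjusted p under 0.05 (limma, Benjamini-Hochberg), beside 6.96% of annotated genes, with a median of 1.22. The set was chosen with earlier results of these libraries known, so that it is not independent evidence of a direction.

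**Figure D4:**
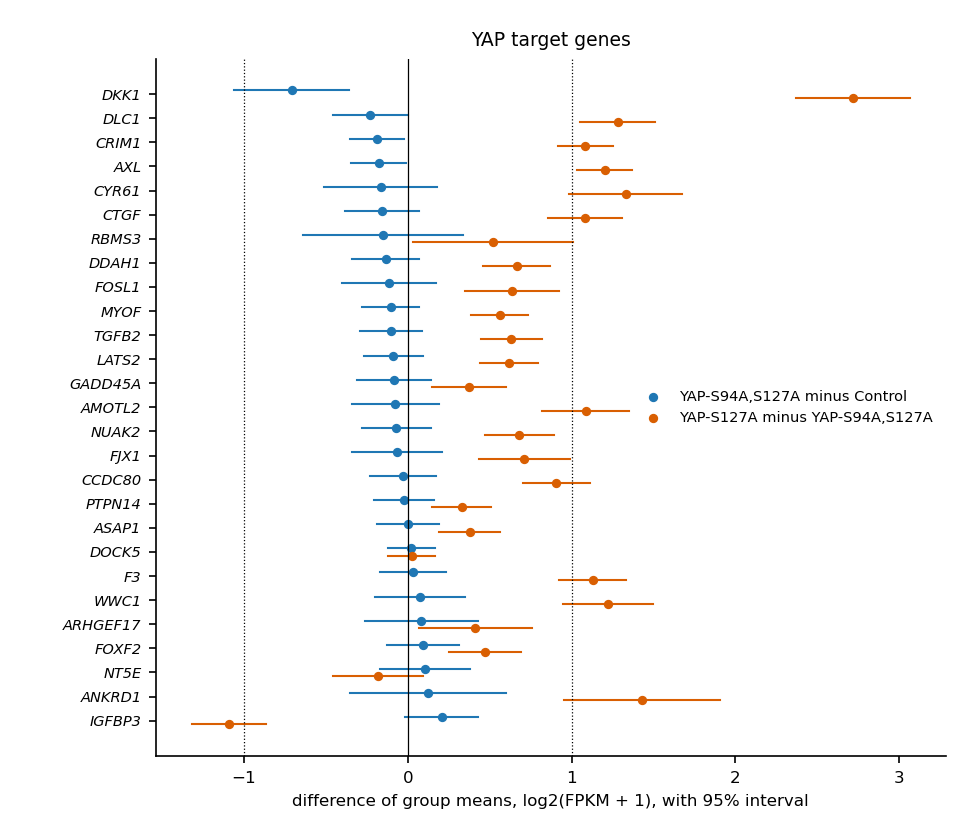
Difference of group means on the log2(FPKM + 1) scale with its 95% interval for the 27 named YAP target genes, ordered by the difference between YAP-S94A,S127A and Control (blue), beside the difference between YAP-S127A and YAP-S94A,S127A (orange), which uses the same YAP-S94A,S127A libraries. Only the blue intervals of DKK1, CRIM1 and AXL leave 0, on the low side, while 24 of the 27 orange points lie above 0.3.

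The other members of the Wang list gave narrow bounds. The whole interval of all 22 lay within a 2-fold change of Control, and that of 20 within 1.5-fold. Members below Control without an unadjusted p under 0.05 included the angiomotin AMOTL2 (-0.08), the LATS kinase LATS2 (-0.09), the membrane-repair protein MYOF (-0.10), the cytokine TGFB2 (-0.10) and the kinase NUAK2 (-0.07), all on the log2 scale, of which AMOTL2 and NUAK2 were at -0.015 and -0.020 without Control replicate 3. Among those above it was IGFBP3, an IGF-binding protein, at 41.0, 52.6 and 48.3 FPKM in Control and 53.5, 55.3 and 54.7 FPKM in the mutant, without overlap, and at 23.1 to 28.8 FPKM in YAP-S127A. IGFBP3 was the 1 member of the list that was lower in YAP-S127A than in YAP-S94A,S127A at an adjusted p under 0.05 (log2 difference -1.09, adjusted p = 7.7e-05 in limma with Benjamini-Hochberg adjustment). In that contrast, which uses no Control library, 17 of the 22 were higher at an adjusted p under 0.05, beside 6.96% of annotated genes, with a median log2 difference of 0.625.

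The Cordenonsi list of YAP targets gave a similar picture. It is not separate evidence, since it shares members such as CTGF, CYR61, AXL and CRIM1 with the Wang list. Over the 59 tested genes of both lists together, 36 were below Control, with a median of -0.044. Of the 45 genes of the Cordenonsi list 44 were tested (COL4A3 was below the filter). Of these 27 were below Control, beside 47.6% of annotated genes, with a median of -0.052. That median was -0.047 with 28 below without Control replicate 3, beside -0.0077 and 6939 of the 13098 annotated genes. PMP22, a tetraspan membrane protein, joined AXL and CRIM1 as the 3 members that were lower at an unadjusted p under 0.05, beside a background of 1.57%, with 72.8, 81.7 and 77.9 FPKM in Control and 62.0, 75.1 and 67.2 FPKM in YAP-S94A,S127A (log2 difference -0.19). None was higher at that threshold, beside 1.89%, and without Control replicate 3 none was lower, beside 240 of the 13098 annotated genes. The bounds held within 2-fold for 43 of the 44. The exception was FSTL1, a secreted glycoprotein chosen here after its values were seen, whose locus also lists MIR198. It was at 2.63, 2.56 and 5.03 FPKM in Control and at 2.92, 84.0 and 3.08 FPKM in the mutant, so that 1 library set an interval of -0.70 to 3.45. In YAP-S127A, 17 of the 44 were higher than in YAP-S94A,S127A at an adjusted p under 0.05 (limma, Benjamini-Hochberg), beside 6.96% of annotated genes, and none was lower, beside 4.27%.

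The genes of the study's own YAP/TAZ signature, which was chosen in part on libraries of this series and so is no independent evidence of a direction, sat slightly off Control, on average, on the side opposite to the one they take with active YAP. Of the 80 genes of its upregulated arm 74 were tested, and 51 of these were below Control, beside 47.6% of annotated genes (median -0.069). At an unadjusted p under 0.05 in limma 5 were lower, beside 1.57%, and 1, EPB41L4B, was higher, beside 1.89%, and with the replicate block 8 were lower. The 3 libraries of each group did not overlap for 12 of them, with 9 below Control, beside a background of 3.67%, and 3 above, beside 4.46%. Without Control replicate 3, 51 were below Control and 4 were lower at an unadjusted p under 0.05 in limma. Over the 13098 annotated genes these counts were then 6939 and 240. The number of members that were lower was 9 without Control replicate 2 and 12 without YAP-S94A,S127A replicate 2. Over all annotated genes it was then 220 and 264.

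After DKK1, the members that were lower by the smallest p were CPA4 and CNN3. CPA4, a secreted carboxypeptidase, was at 6.25, 6.77 and 7.93 FPKM in Control, 3.73, 5.69 and 4.04 FPKM in YAP-S94A,S127A and 59.1 to 69.6 FPKM in YAP-S127A. Every mutant library lay below every Control library, with a log2 difference of -0.55 (95% interval -0.84 to -0.27), and of -0.70 with an adjusted p of 0.0426 (limma, Benjamini-Hochberg) without YAP-S94A,S127A replicate 2. CNN3, an actin-binding calponin, was at 86.2, 87.8 and 92.3 FPKM in Control and 74.8, 82.6 and 75.6 FPKM in the mutant (log2 difference -0.19, 95% interval -0.30 to -0.08), again without overlap, and at 142 to 144 FPKM in YAP-S127A. With all libraries neither passed the adjustment (adjusted p of 0.417 and 0.568 in limma with Benjamini-Hochberg adjustment).

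Of the 52 genes of the downregulated arm 50 were tested, and 15 were below Control, beside 47.6% of annotated genes, with a median of 0.08. At an unadjusted p under 0.05 in limma 4 were higher, beside 1.89%, and 1 was lower, beside 1.57%. EYA1, a transcriptional co-activator and phosphatase, was at 26.6, 26.4 and 24.6 FPKM in Control, 32.9, 28.3 and 31.3 FPKM in YAP-S94A,S127A and 15.9 to 16.3 FPKM in YAP-S127A. Its log2 difference from Control was 0.24 (95% interval 0.10 to 0.38), with no overlap between the groups. PCSK1, a prohormone convertase (log2 difference 0.44), was higher with overlap and HTRA1, a secreted serine protease (0.35), without, and HLA-DMB, a class II peptide-loading chain, was lower without overlap (-0.26). DEPTOR, an inhibitor of mTOR, was the other member that was higher (0.22). Leaving out Control replicate 3 gave 9 that were higher and none that was lower at that threshold, beside 294 and 240 of the 13098 annotated genes.

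A pair of lists was taken from YAP-S127A,S381A against YAP-S127A, the step from 1 to 2 substituted LATS sites. The group means of that contrast share no library with this comparison. The choice used the spread estimated over all 12 libraries, which also sets the p-values here. Counts by p in these lists are therefore not independent of the choice. The annotated genes past the thresholds there numbered 611 higher and 702 lower. In YAP-S94A,S127A against Control, 379 of the 611 (62.03%) were below Control with a median log2 difference of -0.029, and 225 of the 702 (32.05%) were below it with a median of 0.061, beside 47.6% and 0.005 over all annotated genes. At an unadjusted p under 0.05 in limma, 32 of the 611 were lower and 9 higher, and 16 of the 702 were lower and 53 higher, beside 1.57% lower and 1.89% higher. The medians were -0.020 and 0.079 without Control replicate 3, beside -0.0077 over all annotated genes. The single-library medians were close. For the 611 genes, the median distance from the Control mean was -0.010, -0.013 and 0.026 in the Control libraries and -0.036, -0.014 and -0.043 in the mutant libraries, so that every mutant library was the lower, mutant replicate 2 by a margin at the last digit printed. For the 702 genes the groups overlapped, with -0.038, 0.0038 and 0.038 in the Control libraries and 0.065, 0.030 and 0.083 in the mutant libraries. The condition field of the YAP-S127A,S381A samples also lists S94A, which their titles do not, and the titles were followed.

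**Figure D5:**
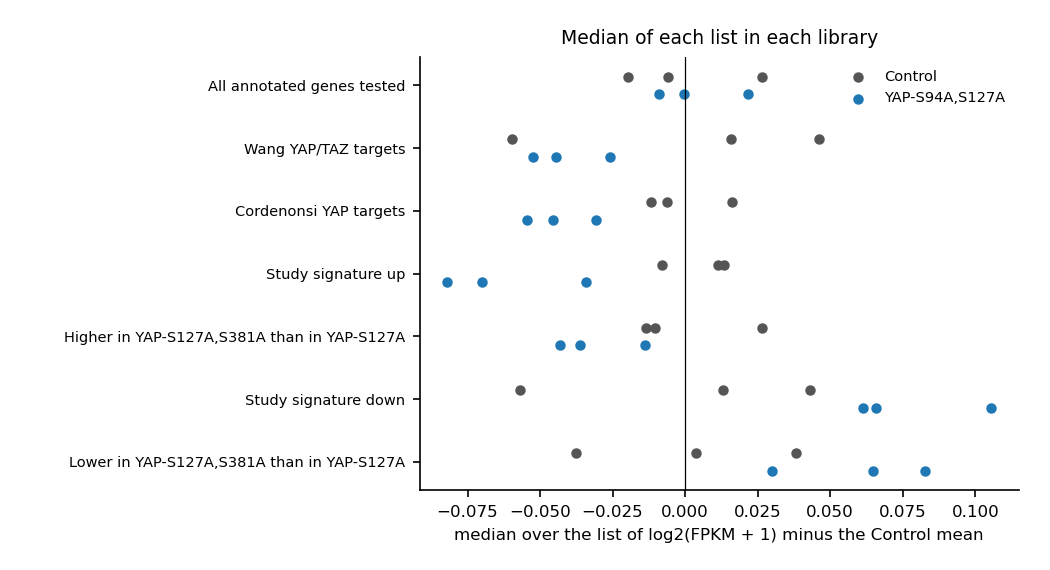
Median over each gene list of a library's log2(FPKM + 1) minus the Control mean of the same gene (x axis), for the 3 Control libraries (grey) and the 3 YAP-S94A,S127A libraries (blue). The mutant libraries lie between -0.082 and -0.014 for the 4 lists of genes raised by active YAP, against -0.009 to 0.022 for all annotated genes, and the Control libraries spread between -0.060 and 0.046 for those lists.

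No regulator of YAP passed the adjusted test with all libraries. Of 24 tested Hippo kinases, scaffolds and YAP-binding regulators 18 were below Control, beside 47.6% of annotated genes, with a median of -0.037. At an unadjusted p under 0.05 in limma 3 were lower, beside 1.57%, and none was higher, beside 1.89%. Without Control replicate 3, 14 were below with a median of -0.007, beside 6939 of the 13098 annotated genes and a median of -0.0077. LATS2, AMOTL2, PTPN14 and NUAK2 of this list are also on the Wang list. NF2 (merlin), an upstream activator of LATS, was at 17.2, 12.2 and 13.97 FPKM in Control and 10.3, 11.01 and 10.1 FPKM in the mutant (log2 difference -0.42). SAV1, the scaffold of the MST kinases, was at 18.8, 19.9 and 18.5 FPKM and 18.03, 17.8 and 16.5 FPKM (-0.12). AJUBA, a LIM protein that restrains LATS, was at 8.61, 7.99 and 7.61 FPKM and 4.47, 7.99 and 5.67 FPKM (-0.39), with YAP-S94A,S127A replicate 2 at the Control level. Without that library AJUBA had a log2 difference of -0.59 with an adjusted p of 0.0427 in limma with Benjamini-Hochberg adjustment. In YAP-S127A it stood at 20.9 to 21.5 FPKM.

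Serum response factor targets, many of which build the actin cytoskeleton, also held lower members. TPM1, an actin-binding tropomyosin, was at 49.8, 45.3 and 51.8 FPKM in Control, 34.8, 39.6 and 38.0 FPKM in YAP-S94A,S127A and 70.3 to 83.6 FPKM in YAP-S127A. Every mutant library was below every Control library, with a log2 difference of -0.38 (95% interval -0.56 to -0.19, adjusted p = 0.371 in limma with Benjamini-Hochberg adjustment), and -0.34 without Control replicate 3. CAV1, the coat protein of caveolae, whose locus also lists CAV2, was at 46.7, 44.9 and 45.8 FPKM in Control and 32.8, 44.2 and 37.8 FPKM in the mutant, barely without overlap (-0.26), and at 129 to 150 FPKM in YAP-S127A. CNN2, another calponin, was lower with an overlap (-0.18), and no longer at an unadjusted p under 0.05 in limma without Control replicate 3 (-0.14). Of the 18 tested members 11 were below Control, beside 47.6% of annotated genes, and at an unadjusted p under 0.05 in limma 3 were lower, beside 1.57%, and none was higher, beside 1.89%, with a median of -0.044. Without Control replicate 3 these counts were 12, 2 and 0, beside 6939, 240 and 294 of the 13098 annotated genes.

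Of 9 tested AP-1 factors, which bind enhancers together with TEADs, 3 were below Control, beside 47.6% of annotated genes. At an unadjusted p under 0.05 in limma 1 was lower, beside 1.57%, and none was higher, beside 1.89%. That member, JUN, was at 4.996, 4.83 and 4.72 FPKM in Control and 3.64, 4.05 and 3.20 FPKM in YAP-S94A,S127A, all below Control (-0.34, 95% interval -0.54 to -0.14), and at 11.3 to 13.2 FPKM in YAP-S127A. JUNB was at 46.4, 49.3 and 42.4 FPKM in Control and 53.7, 49.7 and 49.8 FPKM in the mutant (0.15, 95% interval -0.03 to 0.33, and 0.091 without Control replicate 3), without overlap. TGF-beta, BMP and SMAD targets held 1 member that was higher at an unadjusted p under 0.05, PMEPA1, a negative regulator of SMAD signalling, at 31.6, 34.0 and 37.9 FPKM in Control and 41.2, 38.3 and 44.2 FPKM in the mutant (0.25, 95% interval 0.08 to 0.43), and at 20.1 to 22.6 FPKM in YAP-S127A. Of the 14 tested SMAD-list members 6 were below Control, beside 47.6% of annotated genes. The 1 that was higher stands beside a background of 1.89%.

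YAP can also bind transcription factors other than TEADs, among them RUNX proteins, SMADs and p73. Of 11 tested genes for such factors 7 were below Control, beside 47.6% of annotated genes. None passed an unadjusted p of 0.05 in limma, beside backgrounds of 1.57% lower and 1.89% higher. RUNX1 was at 10.6, 11.3 and 12.8 FPKM in Control and 9.23, 10.8 and 8.95 FPKM in the mutant (-0.24, 95% interval -0.60 to 0.11), RUNX2 was at 0.99 to 2.76 FPKM and 0.78 to 1.18 FPKM (-0.46, -1.02 to 0.10, and -0.21 without Control replicate 3), and TP73 was at 3.18 to 4.06 FPKM and 3.32 to 3.61 FPKM (-0.02, -0.25 to 0.22). The p53 and p73 targets had 12 of 22 below Control with a median of -0.043, and 16 with a median of -0.064 without Control replicate 3. Over all annotated genes 47.6% were below Control, and 6939 of 13098 without that library. Being targets of p53 as well, the listed genes are not a readout of YAP bound to p73 alone. CDKN1A (p21) was at 45.5, 55.3 and 47.9 FPKM in Control and 41.6, 51.5 and 51.6 FPKM in the mutant, and the whole interval of all 22 lay within a 2-fold and a 1.5-fold change.

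The remaining lists held no member at an unadjusted p under 0.05 in limma in either direction, beside backgrounds of 1.89% higher and 1.57% lower. They were 38 DNA replication genes (17 below Control, median 0.011), 34 mitosis genes (15 below, 0.017), 18 ERK output genes (6 below, 0.056), 6 Wnt targets (2 below, 0.039), 22 interferon-stimulated genes (9 below, 0.0045), 23 ATF4 and ER stress genes (8 below, 0.018), 17 hypoxia and glycolysis genes (7 below, 0.015), 22 cholesterol genes (11 below, 0.0018) and 8 melanocyte lineage genes (5 below, -0.016). Over all annotated genes 47.6% were below Control, with a median of 0.005. Without Control replicate 3, 31 of the replication genes and 24 of the mitosis genes were below Control (medians of -0.055 and -0.034), beside 6939 of the 13098 annotated genes and a median of -0.0077, and still none passed an unadjusted p of 0.05. The numbers below Control were then 8 for ERK output, 2 for Wnt, 14 for interferon, 11 for ATF4 and ER stress, 9 for hypoxia, 14 for cholesterol and 3 for melanocyte genes, with medians of 0.026, 0.057, -0.042, 0.0048, -0.036, -0.042 and 0.012. The replication and mitosis genes had narrow bounds, with the whole interval of all 38 and of 33 of the 34 within a 1.5-fold change. CDK1, the kinase that drives mitotic entry, was at 51.0 to 60.9 FPKM in Control and 55.4 to 61.9 FPKM in YAP-S94A,S127A, with an interval of -0.08 to 0.27 around 0.096, a difference that was 0.045 without Control replicate 3. In YAP-S127A, 8 of the 38 replication genes and 5 of the 34 mitosis genes were higher than in YAP-S94A,S127A at an adjusted p under 0.05 (limma, Benjamini-Hochberg), beside 6.96% of annotated genes.

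Among single-symbol genes with at least 5 FPKM in a group, an unadjusted p under 0.01 in limma and no overlap between the libraries, the largest differences below Control after LOC285074 were those of SGMS1, DKK1, ZNF287, HIST2H3D, AX747537, TIMM23 and CPA4. SGMS1, a sphingomyelin synthase, was at 10.03, 10.05 and 6.03 FPKM in Control and 5.04, 5.40 and 3.20 FPKM in YAP-S94A,S127A, but also at 5.31 to 6.04 FPKM in YAP-S127A (log2 difference from Control -0.80 for the mutant, -1.02 without Control replicate 3). ZNF287, a zinc finger protein, was at 9.59, 7.59 and 9.46 FPKM in Control and 5.02, 4.12 and 6.49 FPKM in the mutant (-0.68). TIMM23, a subunit of the mitochondrial inner-membrane translocase, was at 57.3, 54.4 and 47.1 FPKM and 37.9, 34.8 and 33.8 FPKM (-0.56, adjusted p = 0.147 in limma with Benjamini-Hochberg adjustment, and 0.0336 with the replicate block). The locus that lists TIMM23 with its near-identical copy TIMM23B was at 17.0, 15.2 and 14.1 FPKM in Control and 25.4, 22.4 and 20.8 FPKM in the mutant (0.54), so that the family's direction is uncertain. In YAP-S127A both loci stood near the mutant's values, at 26.6 to 32.5 FPKM and 19.4 to 23.3 FPKM.

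The largest differences above Control by the same rule were those of BC070363, ADARB2, BRSK1, MAFF, TESC, SORCS1, ANGPTL2 and SIRPB1. TESC, a calcium-binding regulator of a sodium-proton exchanger, was at 34.9, 41.0 and 38.6 FPKM in Control, 55.5, 50.1 and 53.6 FPKM in YAP-S94A,S127A and 14.2 to 19.3 FPKM in YAP-S127A (log2 difference of mutant from Control 0.47, 95% interval 0.23 to 0.70). Levels of the sorting receptor SORCS1 (0.34), the secreted ANGPTL2 (0.32) and the membrane receptor SIRPB1 (0.29) likewise stood above Control in the mutant and below it in YAP-S127A, at 7.36 to 9.51, 5.85 to 6.70 and 3.35 to 3.87 FPKM in the latter. The small MAF protein MAFF was at 13.7, 13.5 and 13.8 FPKM in Control and 23.5, 18.1 and 18.8 FPKM in the mutant (0.52) and stood at 21.8 to 29.97 FPKM in YAP-S127A, so that it lay above Control with either construct. BRSK1, a kinase of the AMPK family, was at 9.64, 11.7 and 9.06 FPKM in Control and 17.7, 13.2 and 14.8 FPKM in the mutant (0.54), and at 8.40 to 11.7 FPKM in YAP-S127A. None of these except BC070363 passed the adjustment over all loci.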

How the data were processed

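Per the labels and the study's methods, the authors aligned reads to hg19 with TopHat2 2.0.4 and Bowtie2 2.0.0, assembled and quantified transcripts with Cufflinks 2.0.2 and deposited 1 table of log2(FPKM + 1) values per locus and library. The log2 values were used as deposited after 3 repeated entries were removed. They hold no read totals, so the depth is unknown and no counting interval can be given. Annotated genes were those not named as a short RNA or as an assembled transcript (1574 loci), and 1464 of those tested list several symbols. limma 3.58.1 in R 4.3.3 (empirical Bayes with an intensity trend, 1 mean per group, all 12 libraries) was fitted to the 15055 loci with at least 1 FPKM in 3 libraries, with Benjamini-Hochberg adjustment over all of them, after a test on simulated data. An exact permutation test of 3 against 3 libraries cannot go below p = 0.1, and none was used. FPKM values were taken back from the log2 values. A pairing of Control and YAP-S94A,S127A libraries by replicate number was inferred from the values. Deviations from the group means correlated at 0.24, 0.18 and 0.13 for same-numbered libraries and less for every other pair. For same-numbered libraries of YAP-S94A,S127A and YAP-S127A the correlations were 0.23, 0.013 and -0.11. There YAP-S94A,S127A replicate 2 correlated at 0.17 with YAP-S127A replicate 3, and replicate 3 at 0.15 with YAP-S127A replicate 2. A block over all 12 libraries assumes the same pairing in every group, which these values do not bear out for YAP-S127A. The main fit did not use the pairing. Named genes were YAP1, the TEAD genes and WWTR1, the Wang list and 9 reporter genes, every annotated gene past an adjusted p of 0.05, the 8 largest rises and falls by the rule given, and up to 4 members of each other list by p. Members and lists were chosen with earlier results of these data known. The labels say that cells were lysed a day after plating, and the methods give a longer time. Promoters come from RefSeq (GRCh38.p14) and were matched letter for letter to GRCh37. Alternatives were 9 other settings, each library left out in turn, and 2 settings chosen after seeing the data.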

Additional observations from a re-analysis of the deposited data

Results flagged for a closer look

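Short RNA loci, which lie outside the annotated genes described above, passed both thresholds more often than those. Of the 434 tested, 7 were higher and 11 were lower in YAP-S94A,S127A than in Control at an adjusted p under 0.05 (limma, Benjamini-Hochberg) and more than 2-fold (4.15%), beside 0.0611% of annotated genes, and 0 of 1523 assembled loci. FPKM of transcripts shorter than the sequenced fragments is uncertain, and the part of this in the counts was not tested.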

How the results depend on the processing

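No called gene reversed its direction under any alternative. The counts past both thresholds were 3 higher at log2(FPKM + 0.1), 2 higher and 1 lower with at least 5 FPKM in 3 libraries (3 and 1 at an adjusted p alone, and 157 higher at an unadjusted p), 3 and 1 (also at an adjusted p alone) with the replicate block and only the libraries compared, and 1 lower among genes whose symbol is found at 1 locus alone. The last pair of settings was chosen after seeing the data. Without the filter on low values, 466 genes were higher and 395 lower at an unadjusted p. Leaving out each library in turn gave 3 to 5 higher and 3 to 5 lower past both thresholds, 3 to 6 and 3 to 7 at an adjusted p, and 122 to 264 lower at an unadjusted p, with 122 without YAP-S94A,S127A replicate 1. The counts of 3 higher were those without Control replicate 1 or 2, YAP-S94A,S127A replicate 1, YAP-S127A replicate 1 or YAP-S127A,S381A replicate 2, and the 5 and 7 lower those without YAP-S94A,S127A replicate 2.

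The number of Wang targets lower at an unadjusted p was 1 with quantile normalization, with no intensity trend and with the replicate block, 0 with only the libraries compared, blocked or not, and 0 to 3 with a library left out (3 without YAP-S94A,S127A replicate 2). For the upregulated signature arm it was 10 at log2(FPKM + 0.1), 8 with the replicate block and 4 to 12 with a library left out. Over the 13098 annotated genes the number with a library left out was 122 to 264. The median differences with a library left out ran from -0.093 to -0.017 (Wang), -0.070 to -0.0081 (Cordenonsi) and -0.069 to -0.035 (signature), with the values nearest 0 without Control replicate 3 for Wang and replicate 1 for the others. At log2(FPKM + 0.1) the signature median was -0.096 and that of the 611 genes -0.065, and the latter was -0.054 with at least 5 FPKM. In YAP-S127A against YAP-S94A,S127A, 10 Wang targets and 35 signature genes were higher with the replicate block and only the libraries compared. At an adjusted p under 0.05 the block over all 12 libraries changed no call of a gene named above besides MT1G, BC070363, TIMM23 and its copy, while at an unadjusted p of 0.05 in limma AXL no longer passed and ATF3, DLC1, IER3, IGFBP3 and THBS1 passed. With the block on only the libraries compared, 1 of the 9 genes past an adjusted p of 0.05 in limma kept it. Precision is limited by 3 libraries per group, by 1 Control library that disagrees with its label, and by loci that share reads or a microRNA.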
